A study of Homo sapiens with 33 samples.

Results

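The genes of MHC class I antigen presentation were followed in human embryonic stem cells (hESCs) with and without EZH2. They were taken by name: HLA-B, HLA-C, B2M, TAP1, TAP2, TAPBP, PSMB8, PSMB9 and NLRC5, which are 9 of the 34520 genes listed on chromosomes 1 to 22 in the RNA-seq table and 83 of the 149487 windows on these chromosomes in the ChIP-seq table. The choice went by name and not by a measured value, but earlier results of these data were known when it was made. In the files (GRCh38) 7 of them lie in the MHC region of chromosome 6: HLA-C at chr6:31268749-31357158, HLA-B at chr6:31353872-31357188, TAP2 at chr6:32813767-32838822, PSMB8 at chr6:32840717-32844703, PSMB9 at chr6:32844136-32859585, TAP1 at chr6:32845209-32853978 and TAPBP at chr6:33299694-33314387, of which only PSMB9 is on the plus strand. B2M lies at chr15:44711477-44718877 and NLRC5 at chr16:56989485-57083531, both on the plus strand.

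Cells of the established hESC line H9, grown on irradiated mouse feeder fibroblasts and flow-sorted for the surface antigen SSEA4, were profiled in 4 genotypes. WT cells carried both EZH2 alleles (EZH2 +/+), and Het cells were a CRISPR/Cas9 clone with a single mutated allele (EZH2 -/+). Null cells (EZH2 -/-) were made by re-targeting a Het line that held a piggyBac doxycycline (DOX)-inducible EZH2 transgene, and were kept without DOX. Null+EZH2 cells were the same cells with the transgene switched on by DOX, so DOX and the transgene product went together and cannot be told apart. Null cells also had a history of targeting, cloning and transgene insertion that WT lacked, and a second targeting that Het lacked. In comparisons with WT or Het this history cannot be told apart from the loss of EZH2. RNA-seq gave 3 libraries per genotype, and ChIP-seq gave a single column per mark and genotype for H3K27me3, H3K4me3, H3K27ac, H3K4me1 and input, with EZH2 binding measured in WT alone.

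Class I molecules show peptides from inside the cell to cytotoxic T cells. The immunoproteasome subunits PSMB8 and PSMB9 cut the peptides, the TAP1 and TAP2 transporter moves them into the endoplasmic reticulum, tapasin (TAPBP) helps to load them onto a heavy chain such as HLA-B or HLA-C paired with beta-2-microglobulin (B2M), and NLRC5 is the transactivator of the class I genes. EZH2 is the catalytic subunit of Polycomb repressive complex 2 and places trimethylation on lysine 27 of histone H3 (H3K27me3), a mark of repressed promoters. Embryonic stem cells are known for low surface class I.

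Class I promoters are known for elements that bind interferon regulatory factors, NF-kappaB, NF-Y and cyclic AMP response factors, and the promoters of these genes lie inside the windows in which the histone marks below were counted. The 250 bases before the RefSeq start (GRCh38.p14) are shown 5′ to 3′ for the light chain, both heavy chains and 2 of the loading genes. Capitals mark matches, on either strand, to AANNGAAA (interferon regulatory factor core), to an NF-kappaB-like element (GGG, any 2 bases, TT, any base, CC), to CCAAT and to TGACG (cyclic AMP response core), and neighbouring capitals can belong to overlapping matches.
HLA-B (chr6:31357180-31357429, minus strand): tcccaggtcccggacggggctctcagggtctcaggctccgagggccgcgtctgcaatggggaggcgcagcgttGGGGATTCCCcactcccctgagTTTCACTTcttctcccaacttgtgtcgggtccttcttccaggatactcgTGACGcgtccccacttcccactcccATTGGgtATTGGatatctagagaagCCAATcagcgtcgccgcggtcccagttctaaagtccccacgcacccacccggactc
HLA-C (chr6:31272093-31272342, minus strand): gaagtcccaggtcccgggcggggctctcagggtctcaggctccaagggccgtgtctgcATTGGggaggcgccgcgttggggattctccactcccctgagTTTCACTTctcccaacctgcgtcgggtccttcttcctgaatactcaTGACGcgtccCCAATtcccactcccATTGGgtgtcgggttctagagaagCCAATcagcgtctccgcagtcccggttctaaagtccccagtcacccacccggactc
B2M (chr15:44711267-44711516, plus strand): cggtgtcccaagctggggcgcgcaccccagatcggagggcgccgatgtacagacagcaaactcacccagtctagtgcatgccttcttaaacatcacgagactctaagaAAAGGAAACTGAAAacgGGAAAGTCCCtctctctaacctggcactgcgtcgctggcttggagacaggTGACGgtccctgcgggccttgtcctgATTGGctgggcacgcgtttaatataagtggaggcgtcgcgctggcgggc
TAP1 (chr6:32853705-32853954, minus strand): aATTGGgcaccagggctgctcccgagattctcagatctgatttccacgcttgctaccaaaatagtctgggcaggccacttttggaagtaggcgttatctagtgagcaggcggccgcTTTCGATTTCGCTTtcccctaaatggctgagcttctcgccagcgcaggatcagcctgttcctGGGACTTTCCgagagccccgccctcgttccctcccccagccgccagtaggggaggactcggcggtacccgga
TAPBP (chr6:33314079-33314328, minus strand): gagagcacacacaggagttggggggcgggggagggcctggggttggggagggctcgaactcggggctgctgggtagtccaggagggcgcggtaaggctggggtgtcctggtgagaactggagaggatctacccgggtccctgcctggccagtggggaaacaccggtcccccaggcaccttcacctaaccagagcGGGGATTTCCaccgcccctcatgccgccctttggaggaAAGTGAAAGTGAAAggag

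RefSeq sequence was matched for 8 of the 9 genes, and that of NLRC5 is not shown. The interferon regulatory factor core was found before 6 of these 8 genes, and in 20.3% of the 33558 promoter stretches of the same length on chromosomes 1 to 22. The NF-kappaB-like letters were found before 4 genes (HLA-B, B2M, TAP1 and TAPBP) and in 5.08% of all stretches. CCAAT was found before 5 genes and in 31.8% of all stretches, and TGACG before 6 genes and in 21%. In B2M, TAP1, TAP2 and TAPBP the interferon regulatory factor core occurred as an overlapping pair, at 142 to 129 bases before the start in B2M and at 18 to 5 bases before it in TAPBP. PSMB8 and PSMB9 held neither the interferon regulatory factor core nor the NF-kappaB-like letters in this stretch.

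All 9 genes carried H3K27me3 at their starts in WT cells, and the mark was lost in Null cells and returned with the transgene. Levels are reads per 1000000 (RPM) in the 5 kb window centred nearest to the RefSeq start. The immunoproteasome and transporter gene pair PSMB9 and TAP1 was highest in WT, at 23.4 and 23.6 RPM, but their windows share 96.3% of their bases and are 1 measurement in effect. HLA-B followed with 19.2 RPM, PSMB8 with 15.2 and NLRC5 with 14.3. HLA-C (7.30 RPM), TAP2 (5.70), TAPBP (5.38) and B2M (5.16) were lower. The input in WT lay between 1.011 and 1.60 RPM at the same windows, so each gene stood above its input.

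Among all windows on chromosomes 1 to 22, the WT levels of the 9 genes ranked from the 87.2 percentile (B2M) to the 98.2 percentile (TAP1). A promoter counted as marked when H3K27me3 exceeded 0.1 and input was under 0.1 on the log2 scale of RPM per kilobase of window. This held for 8 of the 9 starts and for 12.4% of all windows. TAPBP was just inside, at 0.11 on that scale, and B2M just outside, at 0.04. Over all windows named for these genes, 42 of 83 counted as marked, among them all 7 of HLA-B and all 5 of PSMB8 and of PSMB9, but 4 of 28 in NLRC5, a long gene with many annotated starts, and 0 of 12 in B2M.

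Other genes around the pathway are given by the same rule. Start windows could be placed for 9 of the genes of peptide loading and trimming, of which 1 counted as marked (LNPEP), and for 15 proteasome genes, of which 0 did. Of 10 transcription factors that act at class I promoters, 1 was marked (IRF1, an interferon regulatory factor). Of 6 other class I heavy chains and relatives, HLA-F and CD1D were marked, with 16.6 and 12.7 RPM in WT. Of 10 class II genes 1 was marked (HLA-DPA1), and of 36 interferon-stimulated genes 13 were.

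EZH2 signal in WT at these windows lay between 0.311 RPM (TAP2 and NLRC5) and 0.794 RPM (TAP1), against a median of 0.311 RPM over all windows. TAP1 and PSMB9 ranked highest, at the 87.7 and 87.3 percentiles, and NLRC5 and TAP2 stood at the 49.6 percentile, so the order by EZH2 followed that by H3K27me3 at TAP1 and PSMB9 but not at NLRC5, nor at TAPBP, which came next by EZH2 (0.622 RPM) with only 5.38 RPM of H3K27me3.

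In Null cells H3K27me3 at the 9 starts lay between 0.362 RPM (TAPBP) and 0.895 RPM (TAP2), below the Null input at every gene (0.985 to 1.86 RPM). Over all windows the Null medians were 0.792 RPM for H3K27me3 and 1.49 RPM for input, so a level below input was not particular to these genes. The difference from WT on the log2(RPM + 0.1) scale ran from -4.91 in PSMB8 to -2.54 in TAP2, with a median of -4.35, whereas the median over all windows was -0.74. All 9 genes were past 2-fold lower, as were 41.2% of all windows. PSMB8, PSMB9 and TAP1 were among the windows with the greatest loss, at the 0.65, 0.82 and 1.05 percentiles of all changes. As Null levels were low at all 9 starts, the size of the log2 loss also depends on the WT level. The loss was not particular to these genes, and the paper reports it as complete at all gene promoters. For 5 endoderm markers, 4 of them marked, the median fell from 13.5 RPM in WT to 1.12 in Null. There is a single column per mark and genotype, so these differences have no replicate check and no p-value, and because RPM is scaled within each library, the share of reads is compared and not the amount of mark per cell.

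With the transgene on, H3K27me3 came back to between 3.06 RPM (B2M) and 18.7 RPM (HLA-B). Null was past 2-fold lower than Null+EZH2 at all 9 starts, against 31.3% of all windows, with a median difference of -3.84. Null+EZH2 differed from WT by between -0.73 (B2M) and 0.03 (HLA-C), with none of the 9 past 2-fold lower (5.19% of all windows were). HLA-B and HLA-C, at 18.7 and 7.46 RPM, were nearest to their WT levels. B2M (3.06 RPM), TAP2 (3.60) and NLRC5 (9.98) stayed furthest below theirs.

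Het cells kept the mark at 8 of the 9 starts within 0.25 of WT on the log2 scale. TAP2 was the exception: its 2.52 RPM in Het was 1.14 lower than the 5.70 RPM in WT, past 2-fold as in 4.73% of all windows. At the same TAP2 window H3K4me3, the mark of active starts, was 4.60 RPM in WT and 10.7 RPM in Het, 1.21 higher, past 2-fold as in 5.12% of all windows. H3K4me3 was higher in Het than in WT at all 9 start windows, with a median of 0.41 beside 0.12 over all windows and 0.81 at PSMB8. Among the changes of all windows, TAP2 ranked at the 97.8 percentile and PSMB8 at the 89.2 percentile. The others ranked only between the 59.0 (HLA-C) and 73.0 (B2M) percentiles. Relative to input, or by the median over all windows of a gene, 8 of the 9 H3K4me3 changes were above 0.

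**Figure D1:**
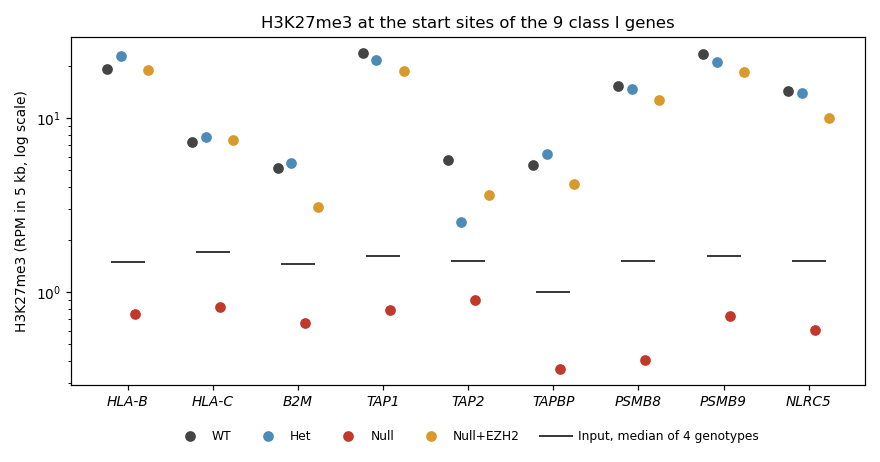
H3K27me3 in RPM (log axis) in the window at the start of each gene, with 1 point per genotype and a bar for the median input of the 4 genotypes. In every gene the Null point lies below the input bar, and WT, Het and Null+EZH2 lie above it. Over all windows Null H3K27me3 (median 0.792 RPM) was also below Null input (median 1.49 RPM).

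The starts also carried H3K4me3 in WT, from 4.60 RPM in TAP2 to 16.2 RPM in TAPBP, against a median of 4.45 RPM over all windows. In Null against WT its change ran from -0.49 in NLRC5 to 0.75 in TAP2, and no gene was past 2-fold in either direction (1.78% of all windows were higher and 13.5% lower). Against Null+EZH2 the 9 changes lay between -0.59 in NLRC5 and 0.29 in HLA-C, also within 2-fold (0.595% of all windows were higher and 0.968% lower). The loss of H3K27me3 was thus measured at starts where H3K4me3 moved by less than 2-fold.

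H3K27ac, a mark of active promoters and enhancers, was low at these starts in WT, between 0.978 RPM (HLA-B) and 2.74 RPM (TAPBP), and 8 of the 9 lay below the median of 2.24 RPM over all windows. In Null it was higher than in WT at 7 genes and lower at TAP1 and PSMB9, with a median change of 0.76 beside 0.26 over all windows. Taking the median over all windows of a gene, all 9 were above 0, here and against Null+EZH2, so the lower values of TAP1 and PSMB9 hold for the start window and not for that measure. TAPBP alone was past 2-fold, with 2.74 RPM in WT and 6.36 RPM in Null, which is 1.19 higher, and 6.52% of all windows passed this fold, with 3.14% past it downwards. B2M (0.95), TAP2 (0.92), HLA-C (0.77), HLA-B (0.76) and NLRC5 (0.73) were below it. Input at these starts also changed, by between -0.54 and 0.57. Relative to input the H3K27ac changes ran from -0.48 to 1.30, with a median of 0.60. On the log2 scale over input, HLA-C stood at 0.58 in WT and 0.78 in Null, and HLA-B at -0.59 and 0.71. Against Null+EZH2 the same 7 genes were higher in Null, up to 0.99 in HLA-B, and none was past 2-fold (2.63% of all windows were higher and 2.33% lower).

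H3K4me1, found at enhancers and flanks of promoters, was higher in Null than in WT at all 9 genes, by 0.11 (HLA-B) to 0.73 (TAP1), with a median of 0.67 beside 0.06 over all windows. None of these was past 2-fold, as were 0.882% of all windows in Null against WT and 0.207% in Null against Null+EZH2, where the 9 changes ran from 0.08 to 0.63. In Null against WT the input itself changed by between -0.54 and 0.57 at these starts, with a median of 0.12. Relative to input the H3K4me1 changes in that comparison ran from -0.36 to 0.69, with a median of 0.50 and 8 of the 9 above 0.

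**Figure D2:**
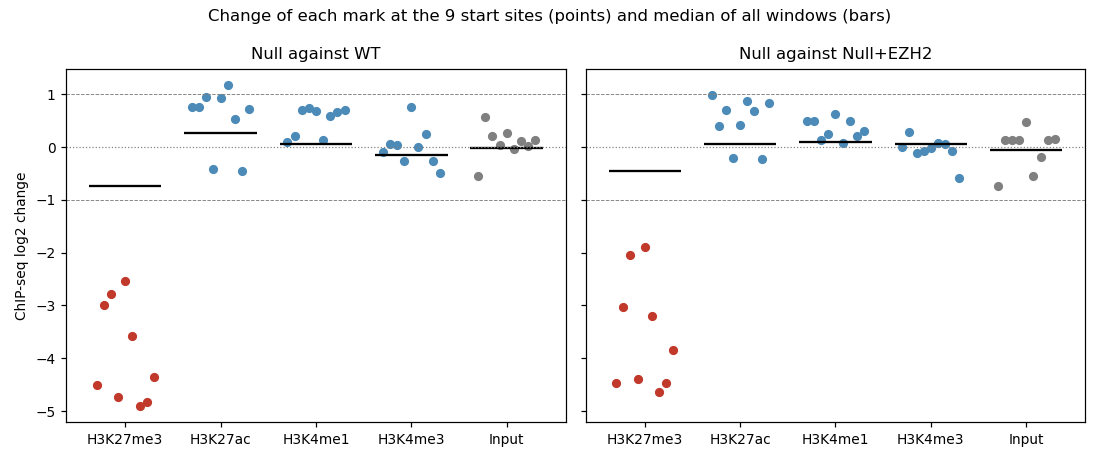
Log2 change of each mark and of input at the 9 starts in Null against WT (left) and Null against Null+EZH2 (right). Points are genes, solid bars give the median change over all windows on chromosomes 1 to 22, and dashed lines mark 2-fold; the H3K27me3 points stand apart from all others, between -4.91 and -1.90.

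RNA-seq asked whether the transcripts followed. The libraries held 16587860 to 36589089 reads on genes, and 3 reads, taken as the floor, came to 0.0528 to 0.120 RPM. EZH2 RNA fitted the labels, with 63.8 ± 4.56 RPM (SD, n = 3) in WT, 51.2 ± 4.95 in Het, 9.95 ± 1.44 in Null and 304 ± 70.6 in Null+EZH2. The pluripotent cell markers summed to 2596 to 3237 RPM in WT, 3495 to 4318 in Het, 3898 to 4446 in Null and 3729 to 4394 in Null+EZH2. Each of the 12 was read in every genotype.

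Transcript levels of the 9 genes spanned a wide range. Per kilobase of exon in WT, HLA-C had 44.6 ± 5.36 RPM (SD, n = 3), B2M 11.1 ± 2.80 and HLA-B 5.96 ± 1.45. TAPBP (1.97 ± 0.233), TAP1 (1.61 ± 0.358), PSMB8 (0.903 ± 0.289) and TAP2 (0.788 ± 0.164) followed. PSMB9 (0.0785 ± 0.0461) and NLRC5 (0.0256 ± 0.00826) were lowest, with 3 to 23 and 8 to 55 reads in a library. The heavy and light chains were thus well expressed while their transactivator was near the floor. The steps from HLA-C to B2M, to HLA-B and to TAPBP were larger than the SDs, whereas TAPBP and TAP1, and PSMB8 and TAP2, did not differ beyond their spread.

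Some of these transcripts cannot be fully separated. The counting ignored strand, and TAP1, PSMB8 and PSMB9 overlap each other or the antisense gene PSMB8-AS1. The listed span of HLA-C reaches over HLA-B, the heavy chains are near-identical and vary between people while reads were mapped to a single reference, and the entry named TAP2 is a readthrough gene with HLA-DOB in GENCODE. NLRC5 overlaps the listed gene RP11-322D14.2. B2M and TAPBP overlap no other listed gene.

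Among the heavy chains, HLA-B RNA was 17.5, 13.9 and 22.7 RPM in the WT libraries, 14.2, 15.2 and 15.6 in Het, 20.6, 22.98 and 41.9 in Null, and 9.87, 12.4 and 22.6 in Null+EZH2. Null stood above all Het libraries, but overlapped WT and Null+EZH2. HLA-B was 0.94 ± 0.31 (SE) higher on the log2 scale in Null than in Null+EZH2 (limma, adjusted p = 0.137), 0.85 ± 0.31 higher than in Het (adjusted p = 0.0784) and 0.61 ± 0.31 higher than in WT (adjusted p = 0.157). None of these passed the threshold of 0.05 without pairing the libraries, and without the third Null library they were 0.63, 0.53 and 0.30. Libraries of the same number deviated together, and with the library number as a replicate block HLA-B passed in all 3 comparisons (limma, adjusted p = 0.0146, 0.00693 and 0.0241).

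HLA-C RNA was 109, 100 and 126 RPM in WT, 115, 116 and 111 in Het, 124, 130 and 190 in Null, and 120, 114 and 124 in Null+EZH2. The Null libraries were above all Het and Null+EZH2 libraries, in the last case by little, and overlapped WT. The difference was 0.38 ± 0.16 against WT (limma, adjusted p = 0.0839), 0.35 ± 0.16 against Het (adjusted p = 0.151) and 0.28 ± 0.16 against Null+EZH2 (adjusted p = 0.403). Without the third Null library it was 0.19, 0.15 and 0.089. With the replicate block it passed against WT (adjusted p = 0.0262), and it also did after rescaling to the median of ratios (adjusted p = 0.03).

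B2M, the light chain of every class I molecule, was 26.5, 31.5 and 43.1 RPM in WT, 21.9, 27.5 and 41.7 in Het, 41.7, 37.9 and 64.1 in Null, and 33.7, 39.6 and 57.5 in Null+EZH2. All genotypes overlapped, and the third library was the highest within each. Null exceeded WT by 0.50 ± 0.28 (limma, adjusted p = 0.204) and Het by 0.67 ± 0.28 (adjusted p = 0.123), and without the third Null library by 0.27 and 0.44. With the replicate block B2M passed in Null against WT (adjusted p = 0.00359), Null against Het (adjusted p = 0.00102) and Null+EZH2 against WT (adjusted p = 0.0351), but not in Null against Null+EZH2 (adjusted p = 0.457), where the difference was 0.13 ± 0.28.

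NLRC5, the transactivator, showed the clearest increase against WT and Het. Its RNA was 0.40, 0.203 and 0.350 RPM in WT, 0.318, 0.302 and 0.445 in Het, 0.739, 0.957 and 1.63 in Null, and 0.566, 0.375 and 0.520 in Null+EZH2. Every Null library was above every other library. The increase was 1.5 ± 0.33 against WT (limma, adjusted p = 0.00502) and 1.36 ± 0.33 against Het (adjusted p = 0.0136), while the 0.99 ± 0.33 against Null+EZH2 did not pass (adjusted p = 0.139, and 0.0540 with the replicate block). Without the third Null library the increase over Het was 1.06 and no longer passed (adjusted p = 0.0547), and a filter at 1 RPM removes NLRC5 from the test.

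The peptide loading gene TAPBP went the other way. TAPBP RNA was 13.8, 11.3 and 14.2 RPM in WT, 10.6, 11.3 and 14.9 in Het, 9.08, 6.74 and 9.23 in Null, and 12.1, 11.9 and 11.4 in Null+EZH2. Every Null library was below every other library. It fell by 0.65 ± 0.18 against WT (limma, adjusted p = 0.0168). The -0.55 ± 0.18 against Het (adjusted p = 0.0542) and the -0.51 ± 0.18 against Null+EZH2 (adjusted p = 0.170) did not pass without the block. With the replicate block the fall against Het passed (limma, adjusted p = 0.0160). Without the first WT, the third WT or the second Null library the fall against WT was no longer called (adjusted p = 0.0575, 0.0586 and 0.0828). TAPBP was also the gene whose start gained H3K27ac past 2-fold in Null, so RNA and this mark moved in opposite directions there.

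The immunoproteasome subunit PSMB8 had 3.73, 1.98 and 3.71 RPM in WT, 5.07, 3.24 and 4.70 in Het, 1.62, 1.54 and 3.24 in Null, and 1.98, 2.36 and 2.64 in Null+EZH2. The Null libraries lay just below those of Het, the nearest pair being 3.236 and 3.241 RPM, and overlapped the others. PSMB8 fell by 1.05 ± 0.33 against Het (limma, adjusted p = 0.0428), and this was lost without the first or without the third Het library (adjusted p = 0.117 and 0.10) and without the first or second Null library (adjusted p = 0.125 and 0.165). PSMB9 had at most 0.409 RPM in any library, and its differences, down to -0.79 ± 0.41 against Het, did not pass.

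The transporter genes gave no call without the block. TAP1 ranged from 5.68 to 8.81 RPM in WT, 7.82 to 11.5 in Het, 4.66 to 8.91 in Null and 5.76 to 7.79 in Null+EZH2, and its -0.56 ± 0.27 in Null against Het passed only with the replicate block (limma, adjusted p = 0.0398). TAP2 ranged from 6.69 to 10.2 RPM in WT, 9.46 to 11.9 in Het, 7.51 to 10.7 in Null and 8.19 to 10.1 in Null+EZH2, with 0.03 ± 0.20 in Null against WT. Both genes had their Null levels inside the range of WT and Null+EZH2 or overlapping it.

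**Figure D3:**
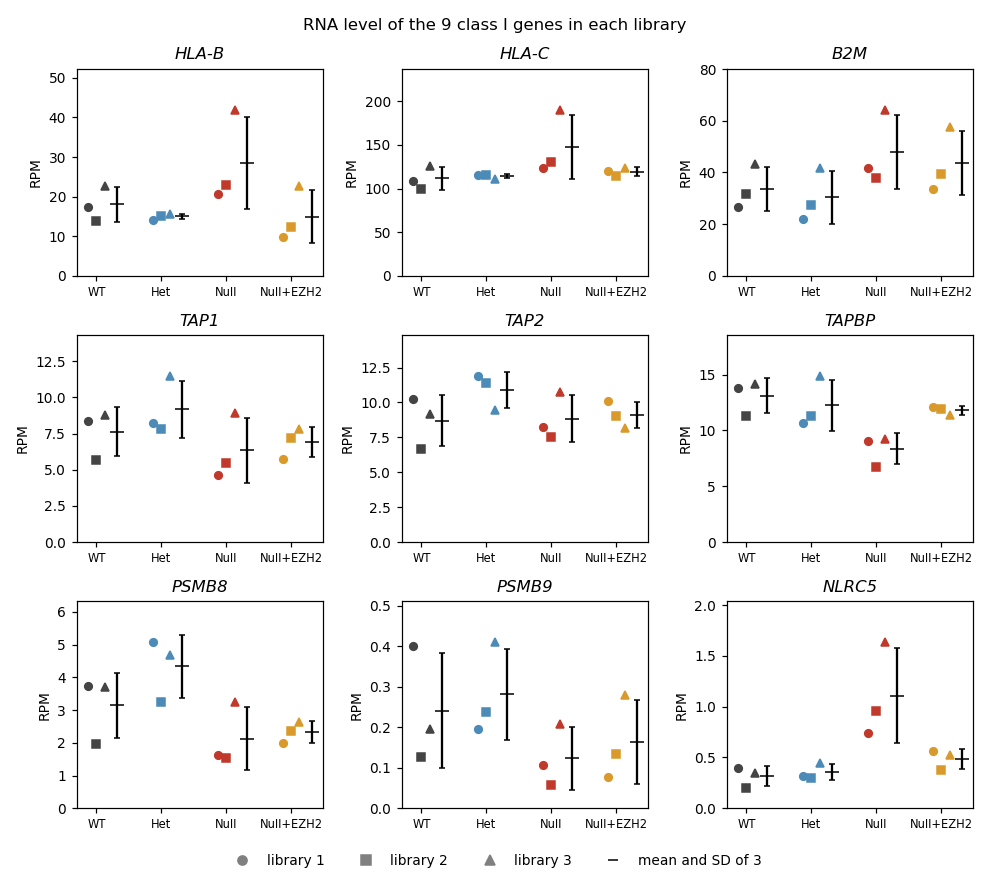
RNA level in RPM (linear axis from 0) of each gene in the 12 libraries, with symbols for the library number and bars for mean and SD (n = 3). NLRC5 has its Null points above and TAPBP its Null points below all others, and the third Null library is the highest Null library in all 9 panels.

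Counted over the 9 genes, Null against WT gave 1 gene higher (NLRC5) and 1 lower (TAPBP) by limma, where 12.6% of 20608 genes were higher and 18.8% lower. The median difference of the 9 was 0.03 and that of all genes -0.13, which moved to -0.03 after rescaling to the median of ratios, and then HLA-C also passed, for 2 higher and 1 lower. With the replicate block 4 were higher (HLA-B, HLA-C, B2M and NLRC5) and 1 lower (TAPBP), beside 17.3% and 28.0% of all genes. With 9 genes, 1 call in each direction without the block is near the background share. Libraries did not overlap at 1 gene higher and 1 lower, as in 20.6% and 29.2% of all genes.

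Against Het, 1 gene was higher (NLRC5) and 1 lower (PSMB8), beside 10.3% and 8.25% of all genes, and with the block 3 were higher (HLA-B, B2M and NLRC5) and 3 lower (TAP1, TAPBP and PSMB8), beside 15.5% and 17.0% of all genes. Libraries did not overlap at 3 genes higher (HLA-B, HLA-C and NLRC5) and 2 lower (TAPBP and PSMB8), as in 17.8% and 17.5% of all genes. Against Null+EZH2, the comparison within the same cells with and without DOX, limma called 0 of 9 (2.63% of all genes were higher and 0.524% lower). Here 3 genes had an unadjusted p under 0.05 (HLA-B, TAPBP and NLRC5), as in 16.8% of all genes, limma-voom on recovered reads also called 0, and the block called HLA-B alone, beside 6.19% higher and 3.21% lower among all genes. Libraries did not overlap at 2 genes higher (HLA-C and NLRC5) and 1 lower (TAPBP), as in 13.5% and 9.7% of all genes. These comparisons share the Null libraries, so their counts are not independent.

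Het against WT and Null+EZH2 against WT gave 0 calls of 9 by limma and by limma-voom, with 0 unadjusted p under 0.05. The shares of all genes called were 0.18% higher and 0.966% lower in Het against WT, and 3.4% higher and 6.9% lower in Null+EZH2 against WT. With the replicate block Het against WT stayed at 0, beside 0.718% higher and 2.16% lower, and Null+EZH2 against WT gave 1 higher (B2M), beside 6.26% higher and 16.1% lower. The widest difference in Het was 0.48 ± 0.33 in PSMB8 and in Null+EZH2 0.51 ± 0.33 in NLRC5.

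**Figure D4:**
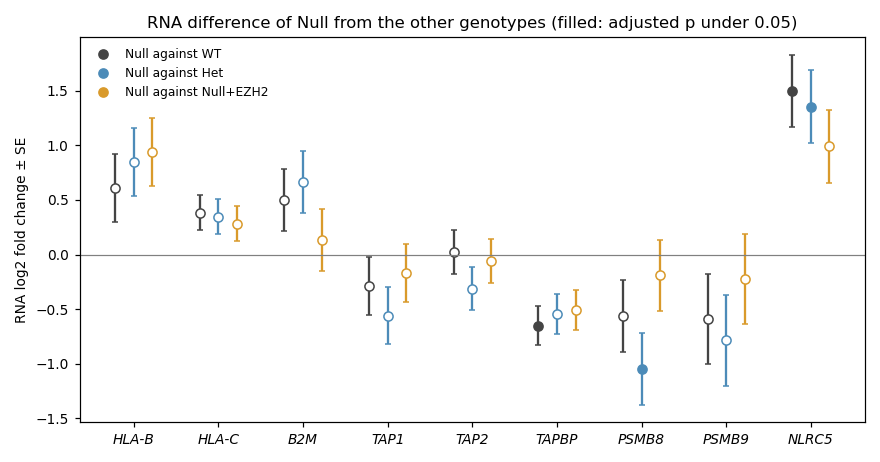
RNA log2 fold change ± SE of Null against WT, Het and Null+EZH2 for each gene, from the limma fit without a block (n = 3 libraries per genotype). Filled points passed an adjusted p of 0.05: NLRC5 and TAPBP against WT, and NLRC5 and PSMB8 against Het.

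Side by side, H3K27me3 at the start and RNA did not move in proportion. PSMB8, PSMB9 and TAP1 lost most H3K27me3 in Null against WT (-4.91, -4.82 and -4.74), and their RNA differences were -0.56 ± 0.33, -0.59 ± 0.41 and -0.29 ± 0.27. HLA-B (-4.50) had an RNA difference of 0.61 ± 0.31, and NLRC5 (-4.35) had 1.5 ± 0.33. TAP2, with the smallest loss (-2.54), had 0.03 ± 0.20.

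Over the 12 libraries some of the 9 genes varied together in RNA level. HLA-B, HLA-C, B2M and NLRC5 correlated with each other (Pearson's r from 0.643 to 0.873 on the log2 scale), and TAP1, PSMB8 and PSMB9 did so too (0.803 to 0.905). TAPBP had r of 0.61 with TAP1 and 0.66 with PSMB9, and TAP2 had 0.69 with PSMB8 and 0.41 with PSMB9. Between HLA-C and PSMB8 r was -0.02, and between NLRC5 and TAPBP -0.60. The libraries share genotype, library number and depth. TAP1, PSMB8 and PSMB9 share part of their sequence span, and the listed spans of HLA-B and HLA-C overlap too. These correlations are therefore given as a description. The genes whose pattern was most like the mean of the 9, among 14893 genes with at least 1 RPM, were RASGRP2 (r = 0.899), LGALS3 (0.889), CISD3 (0.875), AP003068.9 (0.869) and CTDNEP1 (0.861), over 12 libraries.

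The rest of the class I pathway changed at few genes in Null against WT by limma, where 12.6% of all genes were higher and 18.8% lower. Of 7 other heavy chains and relatives tested, HFE, an iron-regulating relative, fell by 1.33 ± 0.36 (adjusted p = 0.0153). Of 9 peptide loading and trimming genes 1 was higher, the chaperone HSPA5 (0.87 ± 0.20, adjusted p = 0.00580). Of 19 proteasome genes 1 was lower, PSME1, a subunit of the interferon-inducible activator (-0.97 ± 0.33, adjusted p = 0.0432). Leaving out 1 library gave 0 to 2 lower among the heavy chains (0 without the second or the third WT or the second Null library) and among the proteasome genes (0 without any 1 library other than the third Null library), so the falls of HFE and PSME1 were not called in those cases. None of these 3 lists had a call in Null against Null+EZH2, where 2.63% of all genes were higher and 0.524% lower.

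Of 14 factors that act at class I promoters, 5 fell and 1 rose in Null against WT, beside 18.8% and 12.6% of all genes, and leaving out any 1 library left 2 to 4 lower. RFX5, which binds the X box of MHC promoters, fell by 1.09 ± 0.12 (limma, adjusted p = 8.47e-05), its partner RFXAP by 0.72 ± 0.22 (adjusted p = 0.0280) and CREB1 by 0.64 ± 0.18 (adjusted p = 0.0200). NFKB1, which gives rise to a subunit of NF-kappaB, rose by 1.23 ± 0.18 (adjusted p = 0.000442). The median of the 14 was -0.30, beside -0.13 over all genes, and none of them was called against Null+EZH2, where RFX5 had -0.44 ± 0.12 (adjusted p = 0.0707).

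Interferon-stimulated genes gave 10 higher and 3 lower of 33 tested in Null against WT, beside 12.6% and 18.8% of all genes, with a median of 0.59 beside -0.13. Without the third Null library they were 6 higher and 5 lower. EPSTI1 rose by 2.67 ± 0.57 and XAF1 by 2.54 ± 0.34, while IFIT1 fell by 2.56 ± 0.42 and IFI6 by 2.04 ± 0.40 (limma, adjusted p = 0.00392, 0.000235, 0.000875 and 0.00250). Against Null+EZH2, 3 were higher and 0 lower: XAF1 and OAS1 by 1.46 each and DDX58 by 0.88, beside 2.63% of all genes higher. Leaving out 1 library gave 0 or 1 higher, except 3 without the first Null library. Null+EZH2 against WT gave 4 higher and 2 lower of 33, beside 3.4% and 6.9% of all genes. The list summed to 533 to 730 RPM in WT, 1038 to 1599 in Null and 975 to 1213 in Null+EZH2. It shares some genes with the proteasome list, among them PSME1. Of 18 genes for interferon receptors and signalling, 3 rose and 3 fell in Null against WT, and 2 rose against Null+EZH2, USP18 (1.54 ± 0.26) and SOCS1 (1.07 ± 0.26), both known as feedback inhibitors of interferon signalling. These were 3 without the first Null library, 0 without the second Null library and 1 without any other single library.

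Class II presentation genes gave 3 higher and 1 lower of 11 in Null against WT, beside 12.6% and 18.8% of all genes. HLA-DQB1 rose by 3.67 ± 0.30, from 6.73 RPM in WT to 85.9 in Null, HLA-DQA1 by 1.75 ± 0.29 and HLA-DPB1 by 0.77 ± 0.21, and HLA-DOA fell by 1.96 ± 0.34 (limma, adjusted p = 1.07e-05, 0.000867, 0.0169 and 0.00131). HLA-DQB1 was also higher in Null+EZH2 than in WT, by 2.68 ± 0.30 (limma, adjusted p = 0.000339). Null against Null+EZH2 called 0 of 11, beside 2.63% of all genes higher and 0.524% lower.

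Markers of differentiated cells are given beside these results, and not every list moved with the Null genotype. Among all genes, 12.6% were higher and 18.8% lower in Null than in WT by limma. Endoderm markers summed to 248.9 to 548.8 RPM in Null, against 35.2 to 68.0 in WT, 20.2 to 492.9 in Het and 51.1 to 104.8 in Null+EZH2, with 5 of 9 higher than in WT, and 1 to 4 once any 1 library was left out. Mesenchyme and fibroblast markers had 7 of 11 higher and 2 lower than in WT, with COL3A1 at 4.70 to 108.8 RPM in Null and 0.153 to 3.96 in WT, although their sum, led by VIM, was 597.4 to 1058 RPM in Null and 846.4 to 1160 in WT. Trophoblast and amnion markers summed to 41.5 to 50.9 RPM in Null and 23.4 to 28.2 in WT, with 3 of 7 higher. Their sums were 18.8 to 42.8 RPM in Het and 29.0 to 35.8 in Null+EZH2. Of 7 endothelial and blood markers tested, 3 were higher (among them PECAM1 and CDH5) and 1 lower (TEK) than in WT, while CD14, CD3E and PTPRC had at most 4, 1 and 3 reads in any library. The sums of this list overlapped, at 49.2 to 84.4 RPM in Null, 57.2 to 80.2 in WT, 56.5 to 71.4 in Het and 65.2 to 100.1 in Null+EZH2. In bulk RNA a change in the share of cells and a change in RNA per cell cannot be told apart, and the part of these cells in the class I levels was not tested.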

How the data were processed

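The RNA-seq and ChIP-seq tables hold log2 RPM as deposited by the authors, who trimmed reads with Trim Galore 0.4.0, mapped them to GRCh38 with TopHat2 2.0.12 (RNA) or Bowtie2 2.2.5 (ChIP) and counted in SeqMonk, without strand for RNA and as non-duplicated reads within 2.5 kb of each start for ChIP. Native chromatin was used for histone marks and crosslinked chromatin for EZH2. The labels name 2 replicates per ChIP column and the study's text another number, so how many were averaged into each single value is not settled.

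Here log2 values were returned to RPM. Values below 1000 reads were whole multiples of 1 read within 0.1 read in 100% of cases, a gene without a read was set to 0 RPM, and no per-sample column was left unmatched. All 12 RNA libraries were fitted with limma 3.58.1 in R 4.3.3 (eBayes with trend) on log2(RPM + 0.1), for the 20608 genes averaging 0.1 RPM or more, with Benjamini-Hochberg adjustment over all of them. Fold changes on this scale understate those of low genes. The test was checked on simulated data with independent noise in each library. That check does not cover the shared deviations of same-numbered libraries given below. The study's text calls the 3 RNA-seq libraries of a line biological replicates. The labels do not say that they came from separate cultures, so p-values measure the spread between libraries. Floors of 3 reads cover counting error only. Same-numbered libraries correlated in their deviations from genotype means in all 18 pairs (r from 0.107 to 0.560, mean 0.332, against -0.159 for 36 pairs of different number), so a fit with the library number as replicate block is printed where it changes a call. ChIP windows were those nearest to the RefSeq start, with a change of 1 on the log2 scale counted. Exon lengths came from GENCODE.

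The genes, lists and tests were chosen with earlier results of these data known. Named are the 9 genes, EZH2, up to 4 genes per list and comparison (the widest called changes, otherwise the 2 with the highest level) and the 5 genes most like the 9. RFX5 against Null+EZH2, HLA-F, CD1D, LNPEP, IRF1, HLA-DPA1, COL3A1, VIM, CD14, CD3E and PTPRC were named after their values were seen. Alternatives were other pseudocounts, filters, scalings, libraries and windows.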

Additional observations from a re-analysis of the deposited data

How the results depend on the processing

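The loss of H3K27me3 past 2-fold at all 9 starts in Null against WT held under every alternative window, pseudocount and scaling tried, with a median change between -4.35 and -3.25. In Null against Null+EZH2 it held at 8 or 9 genes, with a median between -3.84 and -2.77. The single gene past 2-fold lower in Het against WT (TAP2) became 0 with a pseudocount of 1 RPM. The single gene past 2-fold higher for H3K27ac in Null against WT became 2 with the window of highest H3K4me3 and relative to input, and 0 with a pseudocount of 1 RPM or centred on all windows. Relative to input, 2 genes passed for H3K27ac and 1 for H3K4me1 in Null against Null+EZH2, where 0 had passed. The cause was not tested.

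The RNA calls were few and less firm. Genes called higher in Null against WT numbered 1, but 0 with a filter at 1 RPM, which leaves NLRC5 untested, 2 with either rescaling and with limma-voom, and 4 with the replicate block. In Null against Het 1 higher became 0 with the filter at 1 RPM and 3 with the replicate block, and 1 lower became 0 without a filter, with TMM factors and with 2 genotypes only, 2 with limma-voom and 3 with the replicate block. The replicate block also gave 1 higher in Null against Null+EZH2 (HLA-B) and 1 in Null+EZH2 against WT (B2M) where there were 0, and it changed no other call of the 9 genes. Leaving out 1 library gave 1 to 2 higher and 0 to 1 lower against WT, 0 to 2 higher and 0 to 2 lower against Het, and 0 in the other comparisons. Counts of the other gene lists stayed within 1.5 times under 1534 alternatives and moved further under 266.

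Signs turned only for differences that were not called. Leaving out 1 library moved B2M between -0.096 and 0.35, TAP1 between -0.44 and 0.023, TAP2 between -0.20 and 0.050 and PSMB9 between -0.48 and 0.076 in Null against Null+EZH2, and TAP2 between -0.15 and 0.15 in Null against WT. In Het against WT, HLA-C ran from -0.039 to 0.13, B2M from -0.43 to 0.037, PSMB9 from -0.055 to 0.51 and NLRC5 from -0.072 to 0.29. In Null+EZH2 against WT, TAP1 ran from -0.32 to 0.0011 (0.0089 with TMM factors) and TAP2 from -0.094 to 0.21.

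The planned count tests on recovered reads were not run, and limma-voom on these reads was added after seeing the data, and the spread is shared over all genotypes when a library is left out. PSMB9 and NLRC5 are limited by depth, and ChIP-seq columns hold no values by replicate.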
